A study of Mus musculus with 32 samples.

Results

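Chromatin-enriched RNA (cheRNA) was compared between wild-type (WT) mouse embryonic stem cells and H1-TKO cells (TKO), a knockout line of 3 linker histone H1 genes. The labels give 3 cheRNA samples per genotype, 6 of the 32 samples of the series, and both genotypes were grown in serum with leukaemia inhibitory factor and without further treatment. The labels do not state how many clones stand behind the TKO line or whether replicates were separate cultures. The members described are all 5723 transcripts in the authors' deposited table of cheRNA differences, which holds a log2 fold change for each transcript but no value per sample and no p-value. The cheRNA values below therefore carry no error, n or test, and depth is unknown. Every listed transcript differs at least 2.00-fold, so transcripts with smaller differences are not in it.

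Linker histone H1 binds the nucleosome where DNA enters and leaves it and helps to fold arrays of nucleosomes into compact chromatin. Mammals carry several H1 genes, most of them in a large histone gene cluster, and the variants can partly stand in for each other. cheRNA is the RNA that stays in the pellet after a urea and detergent wash of lysed nuclei. It holds nascent RNA still attached to RNA polymerase and non-coding RNA retained on chromatin, such as upstream antisense and intergenic transcripts, many of which are short-lived.

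The table does not say which genotype is the numerator. The sign was set from Hist1h1c, Hist1h1d and Hist1h1e, which as background are the genes deleted in the triple knockout line, so that positive values read as higher in TKO, and this is an inference. With that sign, the authors' deposited table gives log2 TKO over WT values of -5.02 for Hist1h1d, -4.83 for Hist1h1e and -3.61 for Hist1h1c, a direction fixed by the choice. All 3 genes lie on chromosome 13 (mm10), at 23555032 to 23565544, 23621126 to 23622525 and 23738832 to 23746614 as listed. Other listed transcripts of the same region were higher. The testis-specific Hist1h1t was at 3.52 (log2) in the authors' deposited table, and a transcript that runs against Hist1h1c across its start, on the minus strand from 23734753 to 23740880, was at 2.99. A transcript on the 5′ side of Hist1h1d that ends where its gene part begins was at 1.63 in the authors' deposited table, whereas the gene part was lower. The nearby core histone transcripts Hist1h2be and Hist1h2aa were at 2.08 and 2.87 in the authors' deposited table. That of Hist1h2be, on the minus strand from 23596818 to 23621124, begins where the lower Hist1h1e transcript ends on the same strand.

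Sequences are shown for the start of 2 H1 genes, where both the lower gene transcript and, at Hist1h1c, the higher opposite transcript lie, and for the starts of the highest and lowest transcripts of the bidirectional and intergenic classes, whose starts differ in CG content. The H1 stretches are the 120 bases before the RefSeq start (GRCm38.p6), at chr13:23738687-23738806 on the plus strand for Hist1h1c and chr13:23622559-23622678 on the minus strand for Hist1h1e. Capitals mark AAACACA, a motif known from H1 promoters, the general promoter motif CCAAT, and the TATA box letters TATAAA, all searched on both strands.
Hist1h1c: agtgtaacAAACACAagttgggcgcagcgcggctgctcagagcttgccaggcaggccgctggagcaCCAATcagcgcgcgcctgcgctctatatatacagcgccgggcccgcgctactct
Hist1h1e: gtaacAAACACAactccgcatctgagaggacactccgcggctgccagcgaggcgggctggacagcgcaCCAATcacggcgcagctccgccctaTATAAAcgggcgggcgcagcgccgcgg
AAACACA and CCAAT occur in both stretches and TATAAA in that of Hist1h1e. The same stretch of Hist1h1d, not printed because it overlaps an annotated exon, holds CCAAT and TATAAA and 0 whole copies of AAACACA. It begins with acaca, the last letters of that motif, and bases further upstream were not searched. Whether Hist1h1d carries the motif across that edge is therefore not known. Among the same stretch of 32851 RefSeq promoters, 2.68% hold AAACACA, 21.3% CCAAT and 6.34% TATAAA.

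Another 4 stretches of 120 bases are the first ones free of annotated exons from the start of listed transcripts, 135 bases behind it for Pgk1, 318 for Ttc39a and 0 for the other two, and read along the transcript with each CG in capitals. The first pair belongs to bidirectional transcripts, which start next to a gene and run away from it: that of Pgk1, the highest of its class (chrX:106186980-106187099, minus strand), and that of Ttc39a, the lowest (chr4:109406503-109406622, minus strand). The second pair belongs to intergenic transcripts: that named for Tfec, the highest of the table (chr6:16681000-16681119, plus strand), and that named for Adgrl2, the lowest of its class (chr3:149126456-149126575, plus strand). Intergenic is the authors' class, and the Tfec transcript overlaps the gene Tfec on the opposite strand. The intergenic pair was chosen after the values were seen.
Pgk1 bidirectional: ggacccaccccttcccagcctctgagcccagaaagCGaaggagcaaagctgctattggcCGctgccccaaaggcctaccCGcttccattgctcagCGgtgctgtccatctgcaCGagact
Ttc39a bidirectional: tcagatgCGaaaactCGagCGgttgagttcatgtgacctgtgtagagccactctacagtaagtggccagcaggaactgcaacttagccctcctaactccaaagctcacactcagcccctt
Tfec intergenic: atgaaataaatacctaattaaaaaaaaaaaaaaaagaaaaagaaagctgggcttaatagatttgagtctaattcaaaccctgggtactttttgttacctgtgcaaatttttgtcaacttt
Adgrl2 intergenic: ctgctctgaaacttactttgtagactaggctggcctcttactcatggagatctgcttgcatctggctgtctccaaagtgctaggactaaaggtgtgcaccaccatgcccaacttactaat
The Pgk1 stretch has 5 CG and 61.7% G or C, the Ttc39a stretch 3 CG and 51.7%. The Tfec stretch, with 26.7% G or C, and the Adgrl2 stretch, with 47.5%, have 0 CG.

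Over whole classes the start itself was measured, in a window that the printed Ttc39a stretch lies outside of. Within 300 bases on both sides of the start, 64.6% of the 158 higher and 88.9% of the 27 lower bidirectional transcripts were CpG-rich (at least 55% G or C and an observed over expected CG ratio of at least 0.6), against 43.5% of annotated coding gene starts. Of intergenic transcripts, 3.21% of the 1434 higher and 8.95% of the 503 lower were CpG-rich, and of antisense transcripts within genes 1.55% of the 323 higher and 2.00% of the 50 lower. Repeats covered a median of 24.8% of the window at higher intergenic starts and 5.58% at higher bidirectional starts. In each of the 5 classes the lower transcripts had a larger CpG-rich share than the higher ones, though the antisense shares were nearly equal. For transcripts on the 5′ side of a gene it was 31.2% of 109 lower and 8.84% of 215 higher, and for gene transcripts 40.6% of 1597 lower and 26.3% of 1307 higher. The median observed over expected CG ratio was also larger at lower starts in the gene, 5′ and bidirectional classes. It went the other way for intergenic transcripts (0.22 lower, 0.24 higher) and antisense transcripts (0.22 lower, 0.27 higher). A listed start is an assembled end and not a mapped start site: 45.5% of the higher and 47.3% of the lower gene transcripts began within 100 bp of an annotated start.

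Of the 5723 listed transcripts, 3437 were higher in TKO, or 60.1%, and 2286 were lower. The higher transcripts also differed by more. Their median was 4.72-fold (log2 2.24), against 3.34-fold (-1.74) for lower transcripts, and 515 of them (15.0%) passed an absolute log2 value of 4, against 102 lower ones (4.46%). By class, antisense transcripts within genes had the largest median in both directions, 2.99 when higher and -2.38 when lower. Intergenic transcripts followed with 2.63 and -1.96, then 5′ transcripts with 2.25 and -1.80 and gene transcripts with 1.89 and -1.66. Bidirectional transcripts were the mildest, with 1.67 and -1.56, and 4 of 185 passed an absolute value of 4. The histograms of log2 values show these tails.

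**Figure D1:**
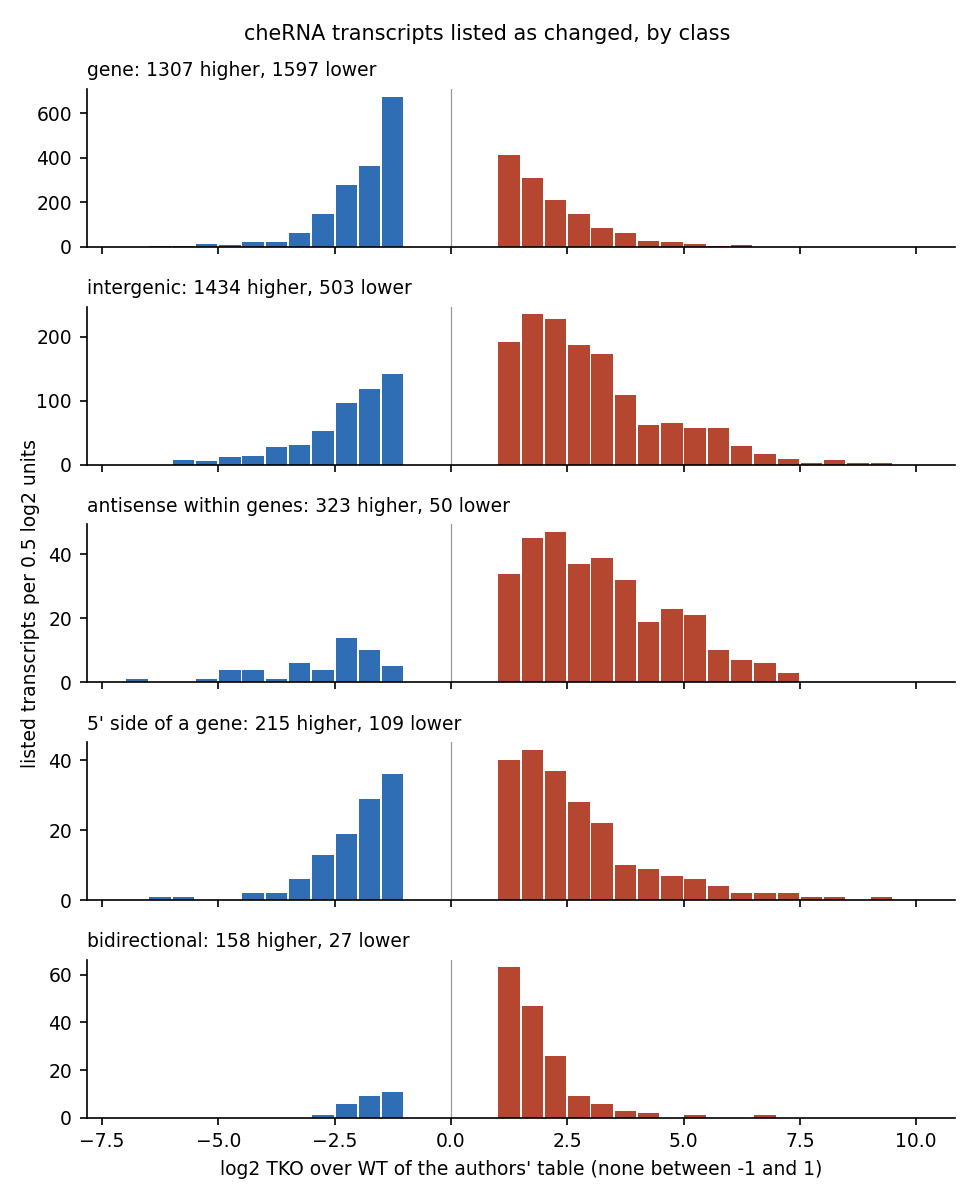
Histograms of the log2 TKO over WT values of the authors' deposited table in steps of 0.5, one panel per transcript class with its own y axis (transcripts per step); blue is lower and red higher in TKO, and the gap around 0 reflects the fold minimum of the table. Intergenic and antisense transcripts have long tails to the right, while the gene class has 1597 lower against 1307 higher.

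The ends of these distributions hold genes of very different kinds. The highest gene transcripts in the authors' deposited table were 2300002M23Rik (8.57), Cdc20b (6.72), a homologue of a mitotic activator, and Ttc29 (6.55), a gene of the sperm flagellum. The lowest were Trpv5 (-6.77), an epithelial calcium channel, and Msln (-6.43), which encodes the surface protein mesothelin. Among antisense transcripts the authors' deposited table has those in Bcat1 (7.42), Dus4l (7.38) and Adamts13 (7.13) at the top and those in Rnf11 (-6.53), Spata13 (-5.25) and Park2 (-5.00) at the bottom. Of the 5′ transcripts the authors' deposited table gives the highest values to Spink13 (9.28), Calu (8.27) and Xbp1 (7.53), and the lowest to Dync1i1 (-6.48), St7 (-5.89) and Msln (-4.43). The 5′ transcript named for Calu also runs over the gene Fam71f1 on that gene's strand. Intergenic transcripts in the authors' deposited table reached 9.48 (Tfec), 9.43 (Znrf3) and 8.83 (C1qtnf1) at the high end and -5.82 (Adgrl2), -5.77 (Cntn5) and -5.75 (B4galnt1) at the low end. Intergenic names are the authors' and do not state a distance. The class is also theirs, and the transcripts named for Tfec and C1qtnf1 overlap those genes on the opposite strand.

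Direction also varied between chromosomes. Chromosome 11 had 478 higher transcripts of 541 (88.4%) and chromosome 9 had 107 of 340 (31.5%), the highest and lowest shares among the autosomes. The part of these chromosomes in the results below was examined only by leaving out chromosome 11. Without chromosome 11 the share higher over all transcripts was 57.1%.

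Lower transcripts were wider. The median width was 8864 bp for higher and 16102 bp for lower transcripts, with a full range from 303 to 702102 bp. Gene transcripts spanned a median of 13475 bp when higher and 22364 bp when lower, and intergenic transcripts 7208 and 9217 bp. Antisense and bidirectional transcripts went the other way, at 5463 against 4509.5 bp and at 9772.5 against 8410 bp, with 50 and 27 lower members. Without gene transcripts the ratio of the medians, higher over lower, was 0.84, against 0.55 with them, and it was 0.83 among transcripts with an absolute log2 value of at least 2.

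The share of higher transcripts went from 71.3% of the 404 transcripts of up to 2 kb to 17.9% of the 301 over 100 kb. It was 68.9% from 2 to 5 kb, 68.7% from 5 to 10 kb, 64.5% from 10 to 20 kb, 53.1% from 20 to 50 kb and 37.3% from 50 to 100 kb. Gene transcripts alone ran from 48.6% of 74 at up to 2 kb to 15.5% of 277 over 100 kb, with 56.6% at 5 to 10 kb. In the other classes, where 75.6% of all transcripts were higher, the share stayed between 76.4% and 79.6% up to 20 kb and was 57.7% of 78 at 50 to 100 kb and 45.8% of 24 over 100 kb. Over all classes, size of change was also smaller in wide transcripts. The median absolute log2 value of higher transcripts was 3.96 at up to 2 kb and 1.76 over 100 kb, and that of lower transcripts 3.18 and 1.42. Higher transcripts outside the gene class did not keep to this order. Their median was 3.83 at up to 2 kb, 2.04 at 20 to 50 kb, 2.33 at 50 to 100 kb and 2.85 for the 11 over 100 kb. Without chromosome 11 the share of higher transcripts over all classes went from 69.7% at up to 2 kb to 50.6% at 20 to 50 kb. It was 33.99% at 50 to 100 kb and 16.03% over 100 kb. The table holds no read number to set beside the values of short transcripts.

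**Figure D2:**
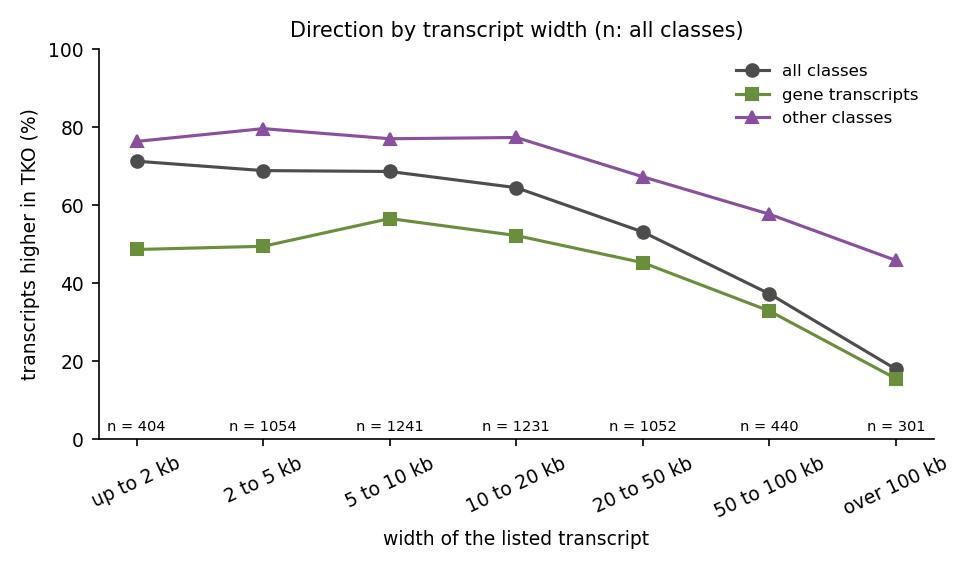
Percent of listed transcripts that are higher in TKO (y axis) by width of the transcript (x axis), for all classes, gene transcripts and the other classes, with the number of transcripts of all classes along the bottom. The line for all classes goes from 71.3% to 17.9%, and the line for the other classes lies above that for gene transcripts in every width class.

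The 3 widest lower transcripts in the authors' deposited table were gene transcripts of Tenm4, a teneurin adhesion protein, with 702102 bp and -1.38, of Lpp, a focal adhesion protein, with 616312 bp and -1.83, and of Rabgap1l-Gpr52 with 575843 bp and -1.02. The 3 widest higher ones in the authors' deposited table were Fhod3, a formin, with 435910 bp and 1.35, Glis3, a zinc finger transcription factor, with 427360 bp and 2.13, and an intergenic transcript named for Sox4 with 406722 bp and 1.54. The same order held for the annotated genes, whose length does not depend on the assembly. The 902 coding genes with higher gene transcripts had a median length of 25240 bp and the 1046 with lower ones 46148 bp, against 16285 bp for the 19957 coding genes with none listed. Genes over 100 kb made up 18.7%, 31.5% and 9.95% of these sets.

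The strands were nearly balanced. The plus strand held 51.0% of all transcripts, 50.0% of the higher and 52.6% of the lower ones. Antisense transcripts leaned to the minus strand, with 163 of 373 on plus (43.7%), and lower gene transcripts to the plus strand, with 857 of 1597 (53.7%). Neighbours on a strand are not independent, so these counts carry no test.

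Names and positions link many transcripts to each other. The 5723 transcripts belonged to 5517 assembled units, and 193 of the 201 units with several listed parts had all parts in one direction. Of 324 transcripts on the 5′ side of a gene, 143 had a listed gene part in the same unit, and 140 of these matched it in direction (61 higher, 79 lower). The 5′ part had the larger absolute value in 84 of the 143. The uncharacterised gene 2300002M23Rik in the authors' deposited table had 7.21 in its 5′ part and 8.57 in its gene part, and Pnma5, a paraneoplastic antigen family gene on chromosome X, 5.10 and 5.50. At the low end the authors' deposited table has Msln at -4.43 and -6.43, Myoz1, a calcineurin-binding protein of the sarcomere, at -3.89 and -4.84, and the phospholipase gene Plce1 at -3.43 and -3.86. A further 181 transcripts on the 5′ side had no listed gene part, and 152 of them were higher.

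Transcripts named for a gene whose gene transcripts were listed mostly took the gene's direction when the gene was higher. For genes that were higher, 236 of 244 intergenic, 58 of 59 antisense, 65 of 65 5′ and 33 of 33 bidirectional transcripts were higher too. For genes that were lower the classes parted: 82 of 84 5′ and 17 of 20 bidirectional transcripts were lower, but 71 of 237 intergenic and 21 of 47 antisense ones were higher. Where the gene had no listed transcript, most transcripts of each class were higher. It was 1126 of 1455 intergenic (77.4%), 241 of 264 antisense (91.3%), 148 of 175 5′ (84.6%) and 122 of 132 bidirectional transcripts (92.4%). Over the whole classes, these transcripts included, the shares were 74.0%, 86.6%, 66.4% and 85.4% in the same order, and 75.6% for all transcripts outside the gene class. A gene that is not listed may be unchanged, changed less than the table's minimum or not detected.

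Bidirectional transcripts show the pairing most directly, because they start a median of 261 bp (higher) and 317 bp (lower) from the nearest coding start. Among the largest pairs higher in TKO in the authors' deposited table were Upp1, uridine phosphorylase, with 5.06 for the bidirectional and 1.95 for the gene transcript, and Zic2, a zinc finger factor of neural development, with 4.41 and 4.62. The bidirectional transcript at Zic2 runs over the neighbouring gene Zic5 on that gene's strand. The largest lower pairs in the authors' deposited table were Ttc39a with -2.78 and -4.36, Etv4, an ETS factor downstream of fibroblast growth factor signalling, with -2.49 and -1.73, and Lmo7, an actin-linked junction protein, with -2.24 and -1.21. All 3 pairs of opposite direction had a higher bidirectional and a lower gene transcript in the authors' deposited table: Ctgf, a secreted matrix protein, with 1.30 and -1.27, Tep1, a telomerase-associated protein, with 1.25 and -1.14, and Crtap, a partner of the collagen prolyl hydroxylases, with 1.22 and -1.14. The highest bidirectional transcript of the authors' deposited table, 507 bp next to the glycolytic gene Pgk1, stood at 6.85, and no gene transcript of Pgk1 was listed.

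Lower intergenic transcripts were more often both far from and close to a coding start. The median distance from their start to the nearest coding gene start was 32529 bp for higher and 54423 bp for lower transcripts, and 37.4% and 52.3% lay over 50 kb away, while 10.7% and 15.7% lay within 5 kb. Of the higher ones 9.48% and of the lower ones 16.9% ran over a coding gene on its strand.

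Listed transcripts were grouped along chromosomes. In all, 3924 transcripts (68.6%) lay within 50 kb of another one, in 1233 clusters, and 1799 stood alone. Of the 2682 neighbouring pairs within 50 kb, 2491 (92.9%) had both members in the same direction, and among the 2499 pairs of different assembled units it was 92.7%. Different units can still be pieces of a single gene, as the 17 transcripts of the Cdk14 cluster are 17 units. Pairs with different gene names were not counted apart. Pairs over 1 Mb apart gave 58.0% of 666. Beyond overlapping pairs, the share went down with the gap: 98.3% at 1 bp to 5 kb, 96.7% at 5 to 10 kb, 86.8% at 10 to 50 kb, 77.3% at 50 to 100 kb, 67.2% at 100 to 250 kb and 60.4% at 250 to 500 kb. The share also differed with strand and arrangement. Pairs on the same strand within 50 kb matched in 96.0% of cases on either strand, overlapping pairs on opposite strands in 90.9% of 374, divergent pairs in 85.9% of 277 and convergent pairs in 76.9% of 195.

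**Figure D3:**
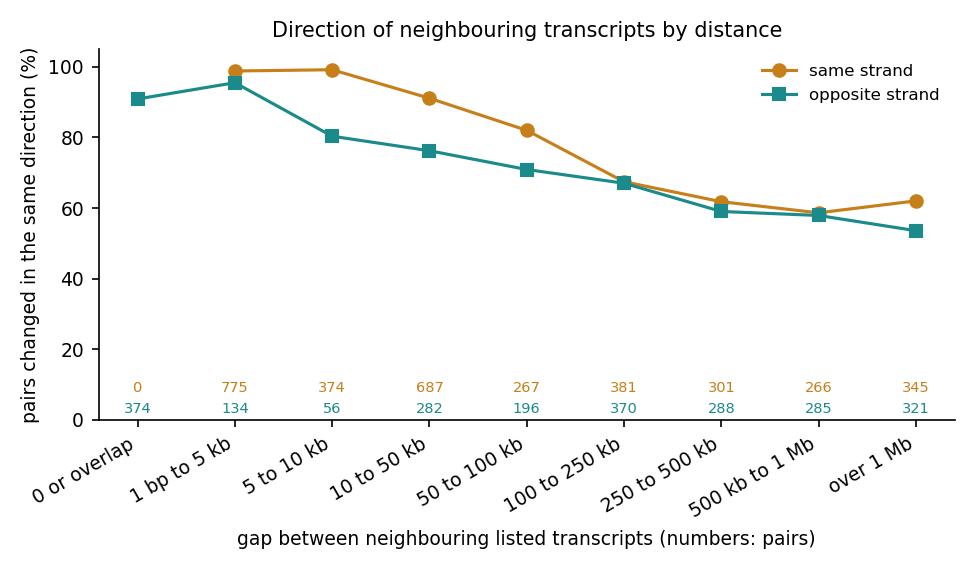
Percent of neighbouring listed transcripts that differ in the same direction (y axis) by the gap between them (x axis), for pairs on the same strand and on opposite strands, with the number of pairs along the bottom. Both lines start above 90% and reach 62.0% and 53.6% over 1 Mb.

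Part of this grouping comes from genes listed in pieces. Thsd4, a matrix protein gene, is listed in 22 pieces, Cdk14, a cyclin-dependent kinase, in 21, Cdh13, an atypical cadherin, in 20 and the peptidase gene Cpq in 14. Joining same-strand transcripts of one direction within 5 kb left 4911 units, of which 3022 were higher. Of the 327 clusters with at least 4 transcripts, 152 were all higher, 111 all lower and 64 mixed; 152 carried a single gene name and 138 used a single strand.

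The clusters with most transcripts illustrate both kinds. At Slit3, an axon guidance ligand (chromosome 11, 35078596 to 35709441), 17 transcripts lay between 2.67 and 8.48 in the authors' deposited table, 13 of them gene and 4 intergenic transcripts. A cluster of 13 of the gene pieces of Thsd4 and 1 5′ transcript ran from 2.25 to 4.16, and one of 12 gene and 1 intergenic transcripts at Dgki, a diacylglycerol kinase, from 2.21 to 3.58 in the authors' deposited table. A cluster of 13 on chromosome 6 (144945402 to 145210970) covered 3 names, Bcat1, Lrmp and Casc1, used both strands and held 7 intergenic, 3 gene, 2 5′ and 1 antisense transcripts from 1.12 to 7.42 in the authors' deposited table. The largest lower clusters in the authors' deposited table were 17 transcripts at Cdk14 (-4.65 to -1.76), 15 at Cdh13 (-5.23 to -1.44) and 14 at Sgcd, a sarcoglycan of muscle membranes (-4.93 to -2.45). Each of these 3 lies on a single strand. In the largest mixed cluster, 9 of 13 transcripts at Pid1 and Dner on the minus strand of chromosome 1 were higher and 4 lower.

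Genes were next read by family. Gene transcripts named 2014 genes, of which 929 had all transcripts higher (46.1%), 1079 all lower and 6 both. Of 21911 annotated coding genes 8.92% had a listed gene transcript, 4.12% with all transcripts higher and 4.77% with all lower. Families were collected by symbol, and the counts below are descriptions that rest on genes listed, with no test of a family. For each gene the value is its listed gene transcript with the largest absolute log2.

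Families with higher gene transcripts alone included the interferon-induced genes, 11 of 62. They ranged in the authors' deposited table from 1.56 (Oasl2) to 3.76 (Ifitm7), with Gbp4, a guanylate-binding protein, at 3.37 and Oas3, a 2-5A synthetase, at 3.29. Oas3, Oas1a, Oas1c and Oas1g are neighbouring paralogues on chromosome 5 and share sequence, so reads could be split between them and these are not separate counts. Core histone genes were listed 6 times of 72, all higher, led in the authors' deposited table by Hist1h2aa (2.87), Hist3h2ba (2.19) and Hist1h2be (2.08). This share of 8.33% lies near the 8.92% of all coding genes. Hist3h2ba, H3f3b and Hist3h2a lie on chromosome 11, where 88.4% of all listed transcripts were higher. Of the Rhox, Mage, Xlr and Pramel genes, many of which are known from the germ line, 3 of 78 were listed. This share of 3.85% lies below the 8.92% of all coding genes. The 3 are all on chromosome X, Rhox3g (3.36), Xlr3a (2.91) and Rhox9 (2.17) in the authors' deposited table. Transcripts of other classes named for interferon-induced genes were 7 higher and 2 lower, and those for core histones 12 and 2. Of all transcripts outside the gene class, 75.6% were higher. Of 17 tubulins 2 were listed, or 11.8%, against 8.92% of all coding genes. Both were higher in the authors' deposited table, the neuronal Tubb3 with 2.77 and the testis gene Tuba3a with 2.68. Olfactory receptors were rarely listed, 4 of 1134 (0.353%), and the 4 were higher, Olfr1371 (4.00), Olfr45 (3.97) and Olfr460 (3.12) foremost in the authors' deposited table. Of 23 transcripts of other classes named for olfactory receptors, 15 were higher and 8 lower, to be set beside the same 75.6%.

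Families with lower gene transcripts alone included keratins, laminins, integrins, Klf factors and ephrins with their receptors. Transcripts of other classes named for them went both ways, with 8 higher and 5 lower for Klf genes, 5 and 3 for ephrins and Eph receptors, 3 and 1 for integrins, 1 and 0 for laminins and 0 for keratins. Among all transcripts outside the gene class 75.6% were higher. All 4 listed keratins of 53 were lower in the authors' deposited table, Krt8 (-2.67), Krt17 (-2.28), Krt18 (-2.01) and Krt19 (-1.85). This share of 7.55% lies near the 8.92% of all coding genes. Krt8 and Krt18 form the filament pair of simple epithelia and lie close together on chromosome 15, as Krt17 and Krt19 do in the keratin cluster of chromosome 11. Laminins, which build the basement membrane, were listed 4 times of 11, all lower, among them Lama5 (-1.53) and Lamb2 (-1.47) in the authors' deposited table. Integrins, receptors for laminins, fibronectin and other matrix proteins, were listed 5 times of 31, with Itga5 (-1.79), Itgb4 (-1.69) and Itgb1 (-1.28) lowest in the authors' deposited table. Of 17 Klf zinc finger factors 5 were listed, led in the authors' deposited table by Klf12 (-3.38), Klf5 (-2.23) and Klf15 (-1.82). Ephrins and Eph receptors, which signal between touching cells, had 4 of 22 listed, Epha2 (-1.88), Efna5 (-1.58) and Epha1 (-1.24) lowest in the authors' deposited table. Cytochrome P450 genes had 3 of 94, or 3.19%, below the 8.92% of all coding genes. Cyp11a1, which starts steroid synthesis, was at -3.52 in the authors' deposited table.

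Other families were split. Among Wnt and Fzd genes, the ligands and receptors of Wnt signalling, 11 of 29 were listed, 5 higher and 6 lower, from Wnt11 (-3.55) and Wnt3a (-2.51) to Wnt8a (2.54) in the authors' deposited table. Semaphorins and plexins, ligands and receptors of axon guidance, had 11 of 29 with 4 higher and 7 lower, the largest values in the authors' deposited table being Sema3b (-1.97), Sema5a (1.78) and Plxna1 (-1.56). Of 9 listed collagens among 44, 5 were higher, with Col26a1 (5.65) and Col6a4 (5.41) at the top of the authors' deposited table, while the basement membrane chains Col4a2 and Col4a1 were at -1.94 and -1.35. TGF-beta superfamily ligands had 4 higher and 2 lower of 31, and in the authors' deposited table Inhbe was at 3.02, Bmp4 at -2.86 and Bmp1, a protease grouped here by its symbol, at -2.22. Solute carriers gave 22 higher and 26 lower of 383, potassium channels 8 and 8 of 94, and zinc finger genes 13 and 12 of 470. Of the transcripts of other classes, 13 of 17 for potassium channels and 48 of 64 for zinc finger genes were higher, near the 75.6% of all such transcripts, and 55 of 64 for solute carriers. All 15 transcripts of other classes named for Sox genes were higher. Hox genes (39) and proteasome genes (39) had 0 listed gene transcripts, and ribosomal protein genes 2 of 79.

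**Figure D4:**
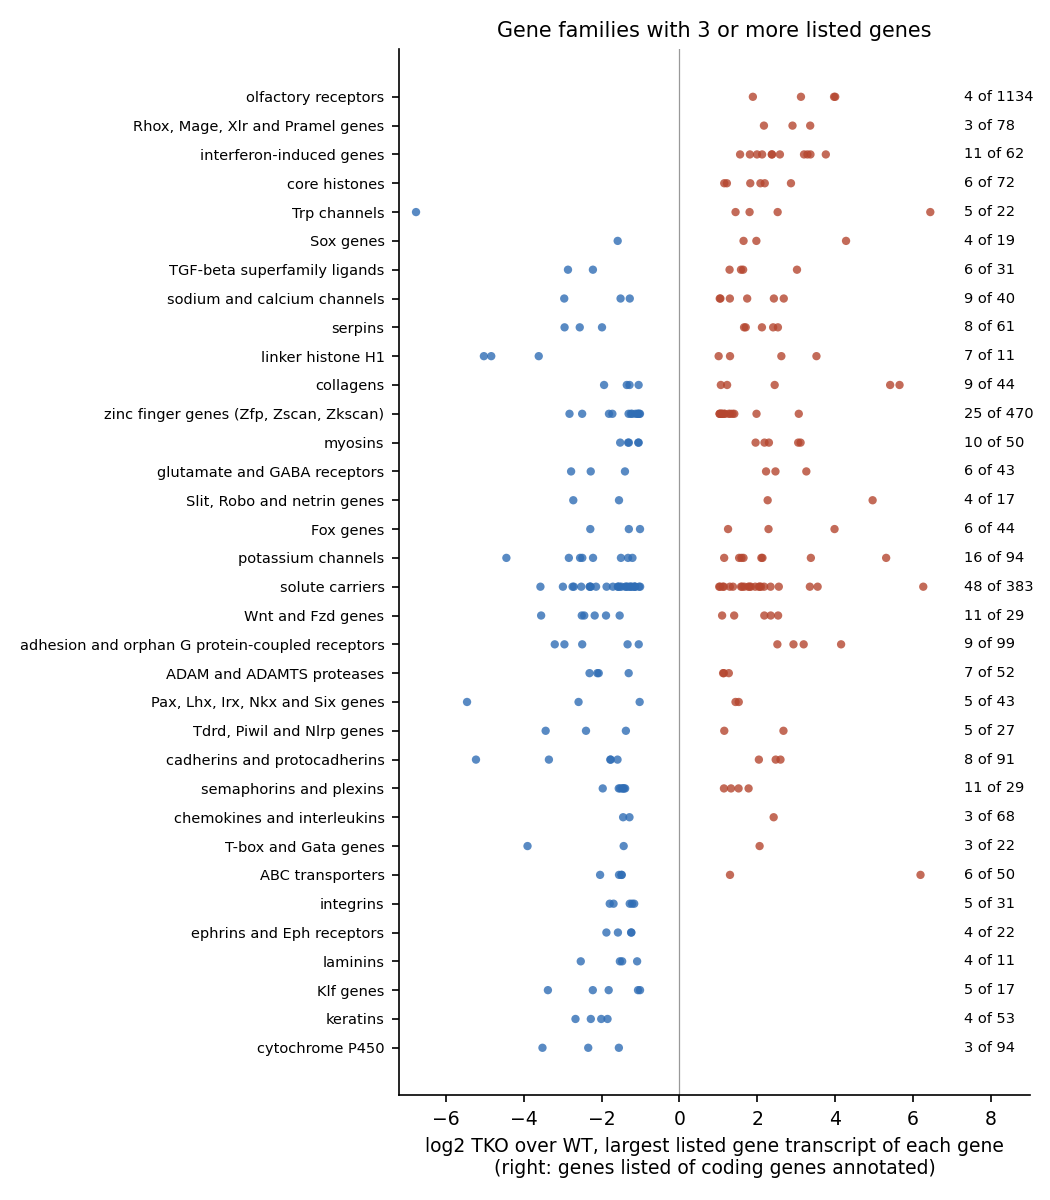
Log2 TKO over WT of each listed gene (x axis, the listed gene transcript with the largest absolute value) for the families with at least 3 listed genes (y axis), red higher and blue lower in TKO, with the number of listed genes of all annotated coding members at the right. The 11 interferon-induced genes are all to the right of 0 and the 4 keratins, 4 laminins and 5 integrins all to the left.

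The labelled cell type could not be checked, since the table holds no unchanged transcript and so cannot show which markers are expressed. Of 12 embryonic stem cell markers 0 had a listed gene transcript. Of 8 fibroblast markers, chosen for feeder cells, 1 had, Vim at 2.25 in the authors' deposited table. Of all annotated coding genes, 8.92% had a listed gene transcript. Among intergenic transcripts named for stem cell markers, the authors' deposited table has those for Sox2 at 5.67, 3.61 and 1.74, for Nanog at 3.56, 2.23 and 1.35 and for Klf4 at 2.78 and 2.16. It also has a transcript on the 5′ side of Klf2 at 1.66 and 1 intergenic transcript named for Dppa5a.

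MapR libraries of the same genotypes gave a readout that the table did not use. MapR releases DNA near R-loops, hybrids of RNA and DNA, with RNase H fused to micrococcal nuclease (RNH). Each genotype had 2 RNH libraries and 1 control with the nuclease alone. A control peak lay on 0.909% of the transcripts in TKO and 0.786% in WT, and RNH peaks that met a control peak were left out.

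Replicate 1 of TKO had an RNH peak on 32.6% of the higher and 38.8% of the lower transcripts, and replicate 2 on 10.8% and 8.88%. In WT, replicate 1 had 28.9% and 40.7% and replicate 2 7.54% and 11.9%. Replicates of a genotype thus differed more than genotypes did, in step with their 24937 and 6010 peaks in TKO and 21929 and 6166 in WT. A peak anywhere on a transcript counted, and lower transcripts were wider, with a median of 16102 against 8864 bp. How far the shares of higher and lower transcripts differ through width was not tested. The shares of a library were also set against each other, higher over lower, and whether this ratio is free of the number of peaks was not tested. Its log2 was -0.25 and 0.29 in TKO and -0.49 and -0.65 in WT, and the genotypes did not overlap. The means were 0.016 ± 0.38 (SD, n = 2) and -0.57 ± 0.11 (SD, n = 2), a difference of 0.59 (two-sided exact permutation test, p = 0.33, the smallest that 2 against 2 libraries allow). By class the difference was 0.73 for gene, 1.00 for intergenic and 1.11 for antisense transcripts (exact permutation p = 0.33 each), 0.28 for 5′ transcripts (exact permutation p = 0.67) and -0.38 for bidirectional ones (exact permutation p = 0.33). The antisense ratio rests on few transcripts: of the 50 lower ones, 7 and 2 had a peak in TKO and 16 and 3 in WT. Of the 27 lower bidirectional transcripts, 21 and 5 had a peak in TKO and 17 and 5 in WT. The share of higher transcripts with a peak was 21.7% ± 15.4 in TKO and 18.2% ± 15.1 in WT (SD, n = 2 each, exact permutation p = 0.67), less than the spread between replicates.

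**Figure D5:**
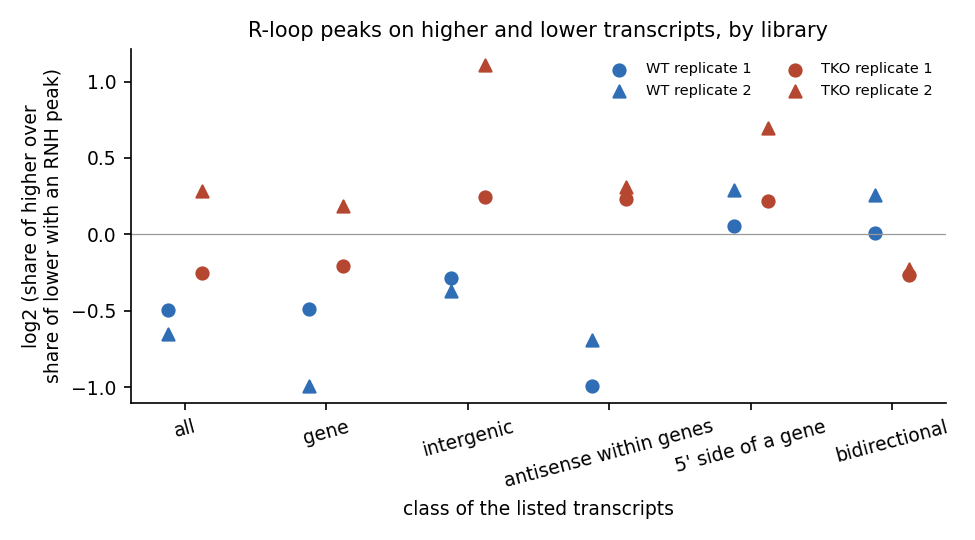
Log2 ratio of the share of higher over the share of lower transcripts with an RNH peak (y axis), one point per MapR library, for all transcripts and each class (x axis). The TKO libraries lie above the WT libraries for all, gene, intergenic and antisense transcripts, overlap them on the 5′ side and lie below them for bidirectional transcripts.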

How the data were processed

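Per the submitters' processing notes, build mm10 was used for all libraries, with DESeq2, TopHat2, bedtools, SAMtools and BWA named for cheRNA and MACS2 and BWA for MapR, their versions and roles being not given in the sources used here. Per the labels' protocols, ribosomal RNA was removed, a stranded kit gave single reads of 75 nt, and 10 pg of luciferase RNA was added; its use in scaling is not stated. The deposited cheRNA values are log2 fold changes. The deposited MapR lists give each peak's fold enrichment (a ratio), -log10 p and -log10 q and a score per the file layout of MACS2, and peaks were called per library.

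The sign of all deposited log2 values was turned, so that TKO is the numerator. Class was read from the prefix of the transcript name, strand from the table, and gene models from GENCODE M21. A cluster joins transcripts with gaps of at most 50 kb. Peaks met a transcript by at least 1 bp, and genotypes were compared by exact permutation. Named are the 3 H1 genes, the 3 highest and lowest transcripts per class, the 3 widest and 3 largest clusters per direction (4 higher clusters where the last tied), the 3 largest members per family and the 3 largest bidirectional pairs per direction; other named items were chosen after their values were seen. A few items under this rule are not reported here. The members, lists and families were chosen with earlier results of these data known. Python 3.11.15, pandas 2.3.3, SciPy 1.17.1 and pysam 0.24.0 were used, and the clustering, overlap and permutation steps were tested on simulated data. No column outside the series was used. Other assays were not analysed here.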

Additional observations from a re-analysis of the deposited data

How the results depend on the processing

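The share of higher transcripts, which is 45.0% for gene transcripts by themselves, was 69.4% at an absolute log2 of at least 2, 61.5% with same-strand transcripts of one direction within 5 kb merged, 57.1% without chromosome 11 and 75.6% without gene transcripts. The ratio of median widths stayed below 1 but moved, to 0.83, 0.48 (merged) and 0.84 (no gene transcripts). Neighbours within 50 kb matched in 97.9% at an absolute log2 of at least 2, 89.9% merged and 95.2% without gene transcripts, and in 96.3% at 10 kb and 90.6% at 100 kb. The share of transcripts near another one was 61.4%, 59.4%, 51.7%, 49.7% and 76.8% in the same order. The plus-strand share was 51.1% at an absolute log2 of at least 2 and 50.9% merged. It was 50.9% without chromosome 11 and 50.1% without gene transcripts. With peaks counted only within 1 kb of the transcript start, the MapR contrast was 0.70 (exact permutation p = 0.33). The share of higher transcripts with such a peak differed by 3.77 percentage points, TKO minus WT (exact permutation p = 0.67). Leaving out each RNH library moved the MapR contrast between 0.32 and 0.86, and the share of higher transcripts with a peak between -7.39 and 14.4 percentage points, TKO minus WT. That share reversed to -7.39 without TKO replicate 1 and to -7.19 without WT replicate 2, settings in which 1 genotype keeps a single library, with 6010 or 21929 peaks. With the replicate block the differences were 0.59 and 3.49 (exact permutation p = 0.5 each, the smallest 2 pairs allow); the labels do not say that numbers pair libraries. Merged and class-wise MapR settings were added after the data were seen. Since the table has no values per sample, no cheRNA replicate could be left out, and depth limits cannot be given.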

Other observations

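Clusters of at least 5 transcripts were also ranked by their median log2, after the values were seen. The highest in the authors' deposited table was a stretch of 150613 bp between histone and vomeronasal receptor genes on chromosome 13 (22027779 to 22178391). Its 7 intergenic transcripts on both strands were named for Hist1h2ah, Hist1h2bj, Vmn1r188, Vmn1r189 and Vmn1r191, with values from 1.27 to 6.99 and a median of 6.18, and 6 of them were at 5.83 or above. The lowest of the 7 is the one next to Hist1h2ah. RNH peaks there numbered 7 and 1 in the TKO libraries and 5 and 0 in the WT libraries. Before peaks that met a control peak were left out, the libraries held 25392 and 6458 peaks in TKO and 22336 and 6612 in WT. Differences in these peak numbers were not tested.

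A run of 9 intergenic transcripts named for Bcl11a, a zinc finger repressor of fetal globin, lay on the plus strand of chromosome 11 (24629765 to 24927283) with values of 4.79 to 8.15 in the authors' deposited table. This run had 2 and 0 RNH peaks in the TKO libraries and 2 and 0 in the WT libraries. The 5 pieces of Cdc20b had 5.03 to 6.72 in the authors' deposited table, with 0 RNH peaks in any library. The 6 intergenic transcripts named for Tfec and Tes on chromosome 6 lay between 3.48 and 9.48, highest at the far end from Tes and lowest next to it, with the gene transcript of Tes at 1.12 in the authors' deposited table. That cluster had 6 and 0 RNH peaks in TKO and 2 and 0 in WT.

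At the low end, Peg10, a retrotransposon-derived imprinted gene, stood at -2.52 and its imprinted neighbour Sgce at -1.37 in the authors' deposited table, while 3 intergenic transcripts downstream of Peg10 on the same strand were lower still, at -4.23, -3.90 and -5.65. A further 8 intergenic transcripts named for Slitrk2 on chromosome X (66376020 to 66503758) lay between -4.51 and -2.92 in the authors' deposited table. In the third low cluster, Ceacam20 and the oocyte gene Nlrp9b on chromosome 7, the 5 values lay between -4.12 and -3.40. RNH peaks at the Peg10 cluster numbered 3 and 1 in TKO and 2 and 2 in WT. At the Slitrk2 cluster they numbered 3 and 0 in TKO and 1 and 0 in WT, and at the Ceacam20 cluster 1 and 0 against 2 and 2.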
